A study of Mus musculus with 6 samples.

Results

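Glucocorticoid receptors and the genes through which glucocorticoids are usually read out were followed through the cells of orthotopic liver tumors from stressed and unstressed mice. The set comprised 10 genes, taken by symbol from the 34099 genes of the count matrices: the receptors Nr3c1 and Nr3c2, the activating enzyme Hsd11b1, and the response genes Fkbp5, Tsc22d3, Klf9, Sgk1, Zbtb16, Errfi1 and Ddit4. Their unique molecular identifiers (UMIs, each standing for 1 captured transcript) were summed per mouse over the cells that the study's own annotation gave to each of 10 cell types.

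All animals were wild-type male C57BL/6J mice, obtained at 8 weeks of age, that later received H22 cells, a murine hepatocellular carcinoma line, in the liver. The stress group had first been exposed to chronic unpredictable mild stress (CUMS), 2 stressors a day for 21 days. The control group carried the same tumors under standard housing, without stressors. Each group held 3 mice with 1 10x Genomics library per mouse, and the tumors come from 1 cell line. P-values measure the spread among these 6 mice only.

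Glucocorticoids are adrenal steroids released under stress. They bind the glucocorticoid receptor, encoded by Nr3c1, which is held by heat shock protein chaperones in the cytoplasm, moves to the nucleus on binding hormone, and raises or lowers transcription of its target genes. The mineralocorticoid receptor, encoded by Nr3c2, binds the same hormones with higher affinity, and 11β-hydroxysteroid dehydrogenase type 1, encoded by Hsd11b1, regenerates active hormone inside cells. Among the target genes, Fkbp5 encodes a co-chaperone that restrains the receptor, Tsc22d3 encodes the anti-inflammatory leucine zipper protein GILZ, Klf9 and Zbtb16 encode transcription factors, Sgk1 a kinase, Errfi1 an inhibitor of the epidermal growth factor receptor, and Ddit4 an inhibitor of mTORC1 that also responds to hypoxia and other stresses.

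The 6 libraries held 61374 barcodes, of which 58794 were annotated, with 149558935 to 187728350 UMIs per mouse. Tumor cells had 103715637 to 170700706 UMIs per mouse, whereas B cells had 210714 to 1244788. Any pair of libraries shared 13 to 40 annotated barcodes, at most 0.424% of the smaller library. The control matrices were counted with Cell Ranger 9.0.0 and the stress matrices with 7.1.0, so software version and stress cannot be told apart. Levels are given in counts per 1000000 (CPM), that is, UMIs of a gene as a share of all UMIs of that cell type in that mouse on that scale. In such sums a change of RNA per cell and a change in which cells of a type are present cannot be told apart.

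The mice of a group also differed among themselves. Over 15405 genes of tumor cells, the deviations of the control mice numbered 1 and 3 (control 1 and control 3) from their group mean correlated with those of the stress mouse numbered 1 (stress 1), with Pearson's r of 0.63 and 0.58 across genes, which are not independent replicates. The deviations of control 2 correlated with those of stress 2 (r = 0.49) and stress 3 (r = 0.28), and ran opposite to stress 1 (r = -0.69). Deviations from a group mean cancel out within the group, so these values follow from the ones before and are no further result. Not every cell type showed these correlations, since control 3 and stress 1 gave r = 0.02 in monocytes and r = -0.39 in inflammatory myeloid cells, where control 2 and stress 2 gave r = -0.01. Results that gained a call without control 2 are given with and without it. Where control 2 was the lowest control mouse for a gene, leaving it out raised the control mean by construction. A call of a fall gained in that way is a description and no separate support.

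The annotation was compared with marker genes. The cells annotated as monocytic myeloid-derived suppressor cells (M-MDSCs) had 5.16 to 38.7 CPM of 4 M-MDSC markers summed, against 1041 to 2735 CPM in monocytes, and carried 4 tumor markers summed (Krt18, Cldn6, Epcam and Afp, with Krt8 of the list left out) at 70.5% to 109.7% of the tumor cell level, so they are called here only cells annotated M-MDSCs. Inflammatory myeloid cells carried 16855 to 35729 CPM of 5 neutrophil markers and had median depths of 1156 to 1988 UMIs per cell. Cells annotated B cells carried 4880 to 15644 CPM of the plasma cell genes Jchain and Mzb1. In dendritic cells (DCs) the tumor markers stood at 40.9% to 73.2% of their level in tumor cells, and in endothelial cells (ECs), monocytes, NK/T cells and B cells at 11.2% to 48.4%. Inflammatory myeloid cells had 7.6% to 66.7%, highest in control 1. DCs joined the clusters numbered 19 and 20 by the study. Cluster 20 held 20 of 79, 109 of 269 and 41 of 158 DCs in the controls, and 71 of 141, 350 of 553 and 186 of 356 in the stressed mice. The median depth of cluster 19 was 21873 UMIs per cell in stress 2 and 899 to 1564 in the other mice. The part of this mix and depth in the DC differences was not tested.

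Against this background the receptors were placed first. Nr3c1 was detected in every annotated cell type and was highest in NK/T cells, at 280.9 ± 21.9 CPM (SD, n = 6 mice), followed by ECs at 153.6 ± 30.3. The lowest NK/T value, 243.9 CPM, lay above the highest EC value, 196.3 CPM, so these neighbors did not overlap. B cells, inflammatory myeloid cells, cells annotated M-MDSCs, hepatic stellate cells (HSCs), monocytes, tumor cells and DCs followed with means between 67.9 and 88.7 CPM, and in this stretch of the order neighbors overlapped. Cell types had been defined by clustering these cells, so differences between cell types are descriptions.

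Nr3c2 was an EC transcript in this series. ECs held 23.8 ± 7.9 CPM (n = 6), from 13.8 to 34.6, whereas tumor cells held 1.34 ± 0.36, NK/T cells 0.88 ± 0.72 and monocytes 0.88 ± 0.40. No UMI was found among 1165895 in neutrophils, which allows up to 2.57 CPM by counting error alone. HSCs averaged 12.0 CPM on 8 UMIs in all, and B cells 8.9 CPM on 30 UMIs, too few to order them. Within ECs, the means of the clusters numbered by the study ran from 3.37 CPM in cluster 15 and 8.14 in cluster 16 to 43.1 in cluster 18, with 32.8 and 30.3 in clusters 2 and 8, which held the most cells.

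Hsd11b1 followed another pattern. It reached 189.8 ± 84.9 CPM in neutrophils and 111.1 ± 64.7 in inflammatory myeloid cells, the population that shares the neutrophil markers, and the ranges of the pair overlapped (32.8 to 273.6 and 41.2 to 200.2). NK/T cells followed at 24.8 ± 7.6 CPM. ECs (1.28 ± 0.64) and tumor cells (0.50 ± 0.47) were at the foot of the order.

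**Figure D1:**
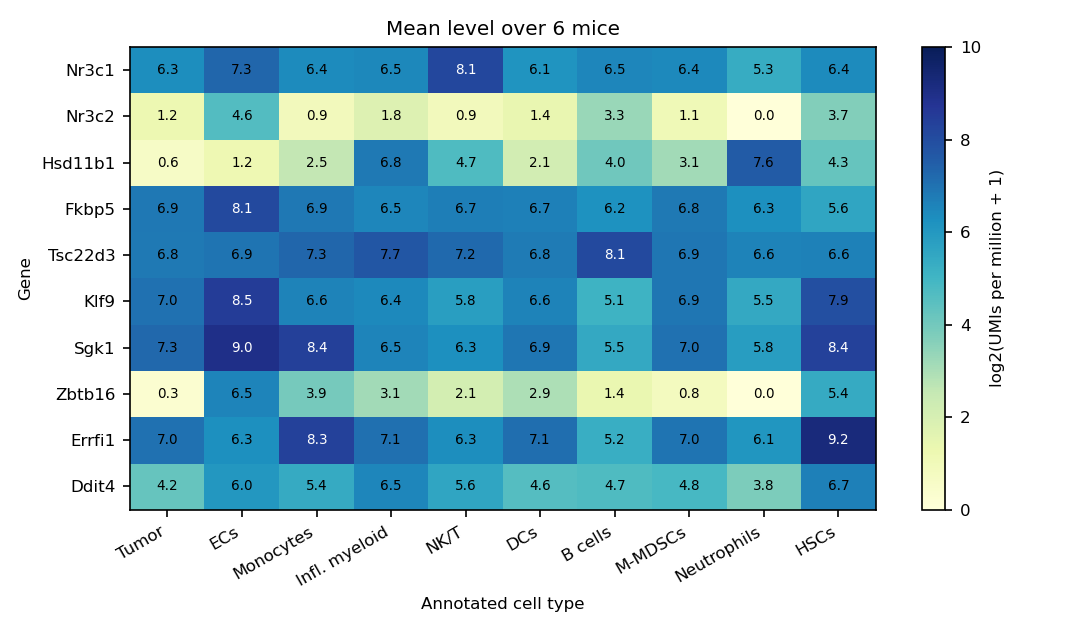
Mean level of the 10 genes (rows) in the 10 annotated cell types (columns) over 6 mice, as color on a log2(CPM + 1) scale. Nr3c1 peaks in NK/T cells, Nr3c2, Zbtb16, Klf9, Sgk1 and Fkbp5 in ECs, Hsd11b1 in neutrophils and inflammatory myeloid cells, and Errfi1 in HSCs.

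The response genes were spread more widely. ECs had the highest mean for Fkbp5 (278.0 ± 110.9 CPM, n = 6), Klf9 (361.6 ± 73.1), Sgk1 (500.7 ± 116.0) and Zbtb16 (91.3 ± 69.0). The Fkbp5 range in ECs, 150.4 to 388.8 CPM, overlapped that of the next cell type, tumor cells (59.9 to 203.1). For Klf9 the EC range of 268.4 to 449.0 CPM overlapped that of HSCs (176.7 to 312.8), and for Sgk1 the range of 374.1 to 680.5 overlapped that of monocytes (260.3 to 404.5). Zbtb16 ranged from 4.87 to 214.6 CPM among the ECs of the 6 mice.

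Tsc22d3 was led by B cells (274.3 ± 162.7 CPM, n = 6), and Errfi1 by HSCs (605.3 ± 159.8) ahead of monocytes (321.1 ± 128.3), without overlap between their ranges of 465.5 to 894.6 and 144.8 to 441.4 CPM. HSCs and neutrophils had under 10 cells in at least 1 mouse and were not tested, and the 6 and 8 HSCs of control 2 and control 3 carried tumor markers at 210.2% and 200.6% of the tumor cell level. Over the 8 cell types with tests, the genes whose mean log2 level ran closest to that of Nr3c1 among 11290 genes compared were Lppos, Hs6st3 and Dnah8 (Pearson's r of 0.98, 0.96 and 0.95). Among the 3 closest to Fkbp5 were Bmpr2 and Arhgef7 (each r = 0.99), and those closest to Tsc22d3 were 4933421O10Rik (r = 0.95), ENSMUSG00000121500 (0.95) and Gm11342 (0.93). These likenesses rest on 8 cell types from the same libraries and are given as description.

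The receptor binds DNA as a dimer at a palindrome of AGAACA and TGTTCT separated by 3 bases. RefSeq windows of the GRCm38.p6 build, from 250 bases before to 50 after each annotated start, were searched on both strands for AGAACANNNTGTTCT and for its half-site TGTTCT, and each palindrome also counts as a pair of half-sites. Windows were at hand for 8 of the 10 genes, 16 in all, the exceptions being Nr3c1 and Zbtb16. The palindrome was present in 3 of 32851 windows of all genes (0.009%), and 1 of the 3 belongs to Sgk1. A half-site was present in 19.0% of all windows, and in 4 of the 16 windows here, 3 of Sgk1 and 1 of Tsc22d3. The Sgk1 window with the palindrome and the Tsc22d3 window with a half-site are printed because the first holds the full palindrome and the second is the only matching window of a gene with a negative fitted stress difference in each tested cell type, though it passed the test in none. Both are printed 5′ to 3′ on the strand of the gene, with the matches in capitals.
Sgk1, chr10:21993640-21993939 (+): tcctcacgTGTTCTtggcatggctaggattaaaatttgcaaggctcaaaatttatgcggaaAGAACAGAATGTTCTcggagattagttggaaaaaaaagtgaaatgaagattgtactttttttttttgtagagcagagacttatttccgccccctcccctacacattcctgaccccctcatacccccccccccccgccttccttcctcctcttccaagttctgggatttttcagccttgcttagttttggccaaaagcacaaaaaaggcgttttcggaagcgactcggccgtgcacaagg
Tsc22d3, chrX:140600473-140600772 (-): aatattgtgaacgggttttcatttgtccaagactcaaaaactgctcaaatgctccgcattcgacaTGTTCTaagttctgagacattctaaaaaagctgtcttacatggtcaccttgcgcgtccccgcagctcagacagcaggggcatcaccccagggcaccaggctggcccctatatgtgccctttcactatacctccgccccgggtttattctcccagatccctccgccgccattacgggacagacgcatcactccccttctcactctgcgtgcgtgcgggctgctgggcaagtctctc
The Sgk1 palindrome begins 189 bases before the start and the Tsc22d3 half-site 185 bases before it. A match describes letters in a window and not a bound site, and receptor sites far from a start lie outside these windows.

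The question of the stress comparison was whether tumors of stressed mice carry a different glucocorticoid readout in each cell type. In 8 of 8 tested cell types, Tsc22d3, Fkbp5 and Ddit4 had negative fitted differences, stress minus control, and those of the receptor transcript Nr3c1 were negative in 4 and positive in 4. The cell types come from the same 6 libraries, and the share of all genes with a negative difference in each of them was not counted. Of other genes named below, Ncoa1, Fos, Egr1, Ier2 and Bnip3 were also negative in 8 of 8, and Hspa8, Hsp90aa1 and Vegfa in 0. Passing the test (edgeR quasi-likelihood, adjusted p under 0.05 over all genes) among the 10 genes were only Ddit4 and Nr3c2, both lower, in tumor cells. There 2 of 10 genes were called, against 21.4% of all 18856 genes tested, 9.46% called lower and 12.0% called higher. The fitted values in tumor cells are scaled so that the typical gene stands at a log2 difference of -0.01, whereas the median log2 ratio of plain CPM is 0.13, and the other cell types shift by at most 0.13 in either direction. Where the groups of mice are said below not to overlap, the share of all genes without overlap was not counted. Such statements are descriptions.

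In tumor cells, Ddit4 (chr10:59949669-59951834, minus strand, GRCm38) stood at 30.7, 15.8 and 23.6 CPM in control 1 to 3 and at 11.9, 13.1 and 12.6 CPM in stress 1 to 3. Every stress mouse lay below every control mouse. The log2 difference was -1.05 (SE 0.22, adjusted p = 0.019). Left out 1 at a time, control 3 and each of the stress mice took the adjusted p above the threshold (0.064, 0.052, 0.065 and 0.066), while the difference stayed between -1.28 and -0.80. With cells thinned to 1000 UMIs the gene was not called. In the 9 tumor clusters with a test, all Ddit4 differences were negative, from -1.26 to -0.22. The gene was called in clusters 1, 3, 7 and 14, where 14.6%, 3.11%, 3.48% and 6.71% of all genes were called.

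The other called gene, Nr3c2 (chr8:76899442-77245012, plus strand), stood at 1.76, 1.54 and 1.70 CPM in the control mice and at 0.94, 1.08 and 1.05 CPM in the stress mice. These groups did not overlap either. Its log2 difference was -0.85 (SE 0.17, adjusted p = 0.014) on 1178 UMIs in all, and the adjusted p rose to 0.055 without control 1 and 0.066 without control 3. With cells thinned to 1000 UMIs Nr3c2 was not among the genes called, but at its level thinning leaves few UMIs, so the missing call says little. In the 7 tumor clusters with a test its differences were all negative, and it was called in 0 (lowest adjusted p = 0.065 in edgeR). The tumor cell level is of the order seen in NK/T cells and monocytes, and EC markers summed to 21.6 to 27.0 CPM in tumor cells of control mice and 28.7 to 40.3 in those of stress mice. Their part in the Nr3c2 difference was not tested. In ECs themselves Nr3c2 stood at 31.5, 13.8 and 23.1 CPM in the controls and 34.6, 20.9 and 19.0 in the stressed mice, with overlapping groups and a log2 difference of 0.10 (SE 0.34, adjusted p = 0.91).

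**Figure D2:**
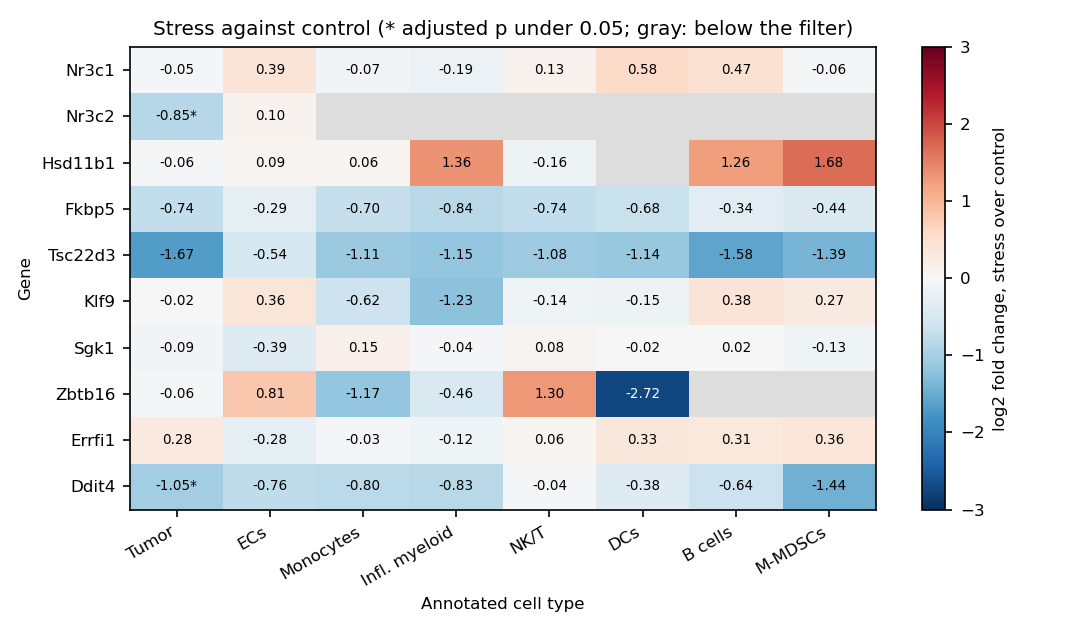
Fitted log2 difference, stress minus control, of the 10 genes (rows) in the 8 tested cell types (columns). Color gives the difference, an asterisk marks an adjusted p under 0.05 and gray marks genes below the count filter. Asterisks stand at Ddit4 and Nr3c2 in tumor cells, and the rows of Tsc22d3, Fkbp5 and Ddit4 are negative in every tested cell type.

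Tsc22d3 (chrX:140539528-140600659, minus strand), the GILZ gene, had a more negative difference than Ddit4 in 6 of 8 cell types. Tumor cells held 260.6, 54.3 and 188.3 CPM in control 1 to 3 and 88.5, 34.1 and 50.7 CPM in stress 1 to 3. Controls 1 and 3 lay above every stress mouse, whereas control 2 lay among them. The log2 difference of -1.67 (SE 0.58) had an adjusted p of 0.077, and without control 2 it was -2.09 with an adjusted p of 0.0092. Leaving out control 2 also brought Fkbp5 (-1.11) and Hsd11b1 past the threshold in tumor cells, to 5 genes of the 10, while 29.9% of all genes were then called, and leaving out control 3 left none. Hsd11b1 changed sign with it, from -0.06 (SE 0.99, adjusted p = 0.97) to 2.08 (adjusted p = 0.049), and control 2 held 191 of its UMIs against 14 and 21 in the other controls.

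NK/T cells held 247.2, 130.9 and 236.3 CPM of Tsc22d3 in the controls and 105.1, 70.5 and 93.3 in the stressed mice, without overlap. The log2 difference was -1.09 (SE 0.26, adjusted p = 0.081). It was called by DESeq2 (-1.09, adjusted p = 0.0023), and without control 2 by edgeR (-1.38, adjusted p = 0.0080). The labels give replicate numbers but name no pairs. In these same counts, the deviations of each same-numbered pair correlated above 0.1 in 3 cell types, NK/T cells, ECs and monocytes. In ECs control 3 gave r = 0.10 with stress 3 and r = 0.21 with stress 1. Fitted with the number as a block, which is a description, the NK/T difference was -1.07 with an adjusted p of 0.0019 in edgeR.

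Among cells annotated B cells the values of Tsc22d3 were 384.4, 359.7 and 489.7 CPM in control mice against 218.1, 113.7 and 80.3 in stress mice. Again the groups did not overlap, and here control 2 stood near the other controls. Control 1 held only 20 of these cells. The log2 difference was -1.58 (SE 0.36, adjusted p = 0.097; DESeq2 adjusted p = 0.0057) on 778 UMIs in all. The tumor marker share in these cells was 26.5% to 38.4% in controls and 23.0% to 33.7% in stress mice, and 5.8% to 21.3% of the Tsc22d3 level would come from tumor RNA at that share.

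In the remaining tested cell types the Tsc22d3 groups overlapped, through control 2 alone except in ECs, where control 3 (138.8 CPM) also lay below stress 1 (156.7 CPM). DCs held 187.6, 71.9 and 195.2 CPM in the controls and 98.3, 43.0 and 54.0 in the stressed mice, a log2 difference of -1.14 (SE 0.38, adjusted p = 0.14) that was called without control 2 (-1.56, adjusted p = 0.012). Monocytes held 298.0, 86.97 and 249.3 CPM against 165.4, 58.5 and 63.6 (-1.11, SE 0.52, adjusted p = 0.44). Both cell types repeated the order seen in tumor cells, with control 2 lowest of its group and stress 1 highest of its group. Inflammatory myeloid cells (-1.15, SE 0.45, adjusted p = 0.99), cells annotated M-MDSCs (-1.39, SE 0.54, adjusted p = 0.44) and ECs (-0.54, SE 0.39, adjusted p = 0.54) gave fitted differences of the same sign. In cells annotated M-MDSCs it was called without control 2 (-1.86, adjusted p = 0.038). Split by cluster, the difference was negative in 25 of 25 clusters with a test, and in tumor clusters it ran from -1.96 to -1.14. In EC clusters it ran from -1.12 to -0.02, with -0.31 (SE 0.41) in cluster 2 and -0.02 (SE 0.34) in cluster 8. The clusters come from the same 6 libraries and are not independent of each other.

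Tumor markers were present in every cell type. At the tumor marker share, tumor RNA would make up 9.2% to 48.3% of the Tsc22d3 level in ECs and 38.4% to 101.7% in DCs, and its part in the differences was not tested. With that share taken off, NK/T cells held 121.1, 110.0 and 170.3 CPM in the controls and 79.8, 56.2 and 85.9 in the stressed mice, and B cells 315.4 to 437.3 against 63.2 to 197.7, both without overlap. DCs then held -3.21, 36.7 and 81.4 against 56.7, 24.9 and 33.3 CPM, and cells annotated M-MDSCs 69.1, 5.88 and 16.8 against 54.5, -0.99 and 0.48, both with overlap. In ECs they were 103.0, 74.0 and 88.3 against 131.3, 60.1 and 66.7 CPM, and in monocytes 201.8, 77.7 and 212.2 against 146.4, 53.3 and 57.9, also with overlap. Inflammatory myeloid cells held 166.4, 141.3 and 351.3 against 135.1, 99.9 and 90.4 CPM, without overlap. The values rest on 1 fixed tumor profile per mouse.

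**Figure D3:**
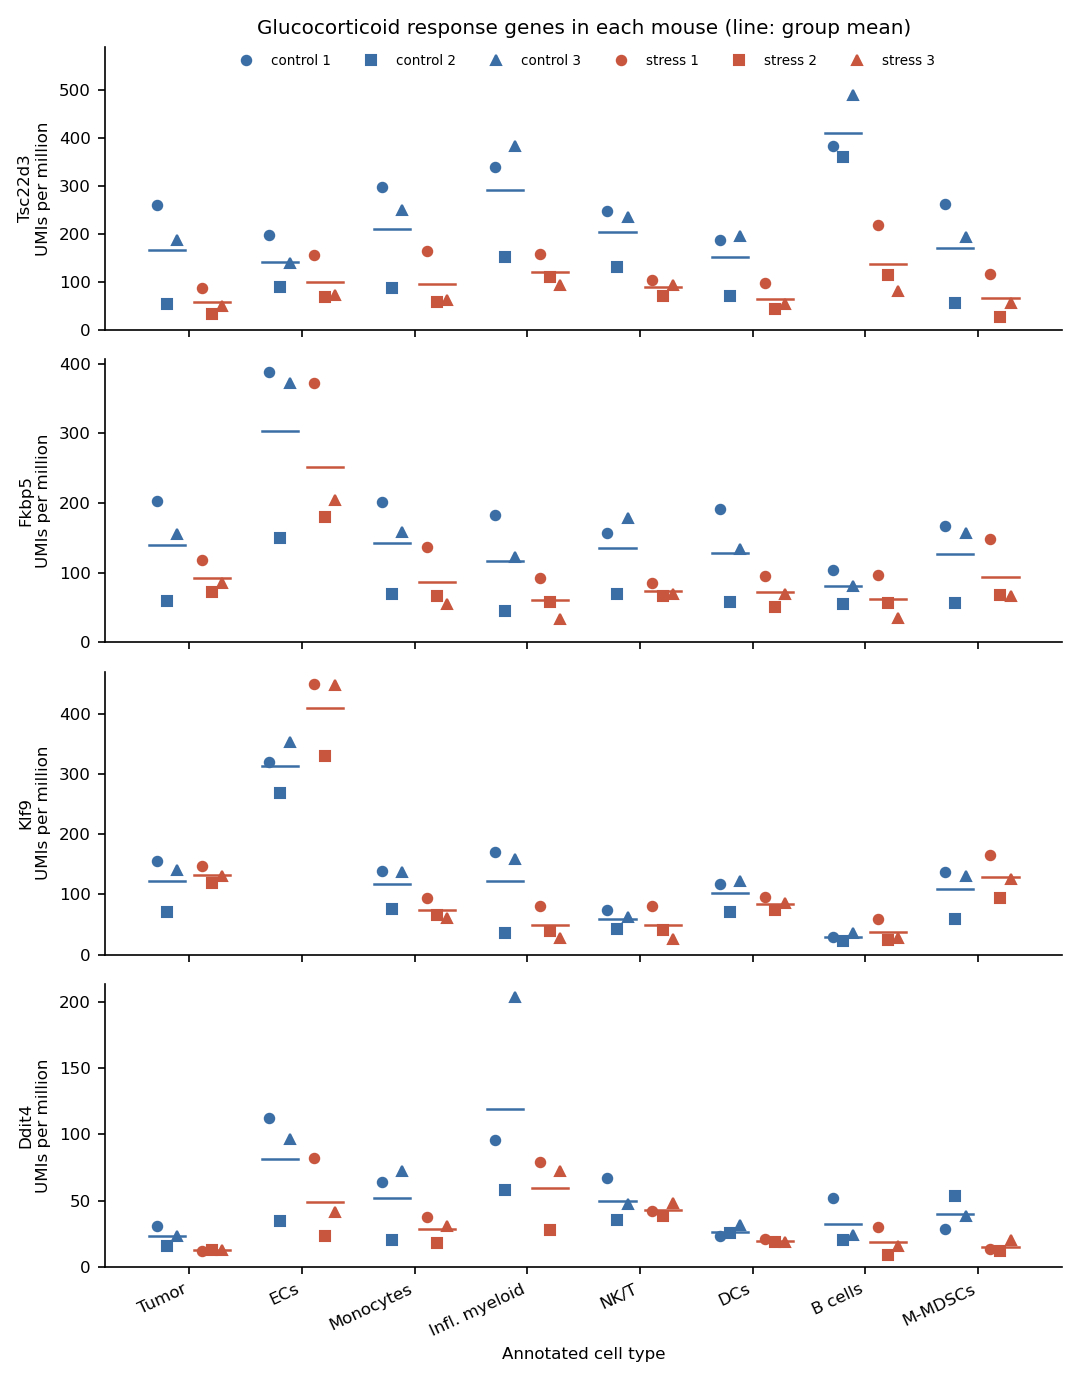
Level in CPM (linear axis from 0) of Tsc22d3, Fkbp5, Klf9 and Ddit4 in each of the 6 mice, by tested cell type, with control mice in blue, stress mice in red, a marker shape for each mouse number and a line at each group mean. For Tsc22d3, Fkbp5 and Klf9 control 2 is the lowest control mouse and stress 1 the highest stress mouse in 8 of 8 cell types.

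Fkbp5 (chr17:28399094-28517527, minus strand) had negative fitted differences, from -0.29 in ECs to -0.84 in inflammatory myeloid cells, and likewise in 25 of 25 clusters with a test. In tumor cells it stood at 203.1, 59.9 and 156.0 CPM in the controls and 118.1, 73.0 and 85.7 in the stressed mice (-0.74, SE 0.42, adjusted p = 0.24). The groups overlapped through control 2, the lowest of all 6 mice. In ECs, where the gene was highest, the values were 388.8, 150.4 and 372.5 CPM against 372.4, 180.4 and 203.8 (-0.29, SE 0.41, adjusted p = 0.76). Stress 1 stood with controls 1 and 3, and control 2 with stress 2 and stress 3.

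NK/T cells had 157.3, 69.0 and 178.4 CPM of Fkbp5 in the controls and 85.1, 65.9 and 69.3 in the stressed mice (-0.74, SE 0.30, adjusted p = 0.33). Without control 2 the gene was called in NK/T cells (-1.15, adjusted p = 0.016) and in DCs (-1.11, adjusted p = 0.035). At the tumor marker share, tumor RNA would make up 18.0% to 62.5% of the Fkbp5 level in NK/T cells and 50.5% to 77.8% in DCs. With it taken off, NK/T cells held 59.1, 45.9 and 123.7 CPM against 51.3, 35.4 and 56.8, with overlap, and its part was not tested. With all mice in and genes of low counts filtered, the lowest adjusted p for Fkbp5 by edgeR without a block was 0.24, and without the filter it was called in NK/T cells (-0.70, adjusted p = 0.011) and DCs (-0.64, adjusted p = 0.030).

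Outside tumor cells Ddit4 was not called by edgeR with all mice in, genes of low counts filtered and no block. In cells annotated M-MDSCs it stood at 28.4, 53.6 and 38.7 CPM in the controls and 13.7, 12.1 and 19.96 in the stressed mice, without overlap (-1.44, SE 0.30, adjusted p = 0.061; without the filter, adjusted p = 0.00021), on 271 UMIs in a population that carries tumor markers close to the tumor cell level. With the tumor marker share taken off, the values were 5.52, 39.1 and 16.5 against 5.27, 1.63 and 6.11 CPM, and the groups overlapped. DCs held 23.0, 25.7 and 31.4 against 21.003, 18.9 and 18.5 CPM, also without overlap (-0.38, SE 0.21, adjusted p = 0.41). Tumor RNA at the marker share would be 26.6% to 97.7% of that level, and with it taken off the DC groups overlapped, at 0.53, 15.4 and 17.2 against 15.4, 12.0 and 13.3 CPM. NK/T cells held 67.4, 35.5 and 47.5 against 42.0, 38.1 and 48.0 CPM, a difference of -0.04 (SE 0.24). Ddit4 is also a hypoxia gene, and of 8 other hypoxia genes in tumor cells 3 fell, against 9.46% of all genes: Bnip3 (-0.90), Slc2a1 (-0.75) and Ndrg1 (-0.63). Vegfa, the vascular growth factor gene, named here after its values were seen, had positive fitted differences in 8 of 8 cell types and was called in none (0.31 in tumor cells, adjusted p = 0.23). Over the cell types that tested each gene, fitted differences were negative in 8 of 8 for Bnip3, Ndrg1 and Pgk1, 7 of 7 for Egln3, 7 of 8 for Slc2a1, 1 of 3 for Adm and 1 of 2 for Car9. The part of these genes in the Ddit4 difference was not tested.

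Klf9 (chr19:23141226-23168134, plus strand) had fitted differences of either sign, negative in 5 of 8 cell types, and was called in none. In no cell type did its effect differ from that in tumor cells by the test of the difference (lowest adjusted p = 0.21, in monocytes). In ECs it stood at 319.8, 268.4 and 353.9 CPM in the controls and 449.0, 330.2 and 448.5 in the stressed mice, with overlap (0.36, SE 0.18, adjusted p = 0.38). In monocytes the values were 138.6, 75.0 and 136.8 against 94.8, 66.6 and 60.8 CPM (-0.62, SE 0.28, adjusted p = 0.43), and control 2 again lay among the stress mice. In inflammatory myeloid cells they were 170.8, 36.5 and 159.0 against 81.3, 39.4 and 27.2 CPM (-1.23, SE 0.55, adjusted p = 0.99). Tumor cells gave -0.02 (SE 0.28), with control 2 at 70.2 CPM and the other 5 mice between 119.3 and 155.1.

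Zbtb16 (chr9:48654297-48836222, minus strand), which encodes the zinc finger factor PLZF, showed the mouse order with a wide spread in ECs. It stood there at 96.9, 4.87 and 94.9 CPM in the controls and 214.6, 69.5 and 66.9 in the stressed mice. Control 2 lay far below every other mouse and stress 1 above every other, and the log2 difference was 0.81 (SE 0.92, adjusted p = 0.70). Red cell markers summed to 4.02 CPM in ECs of control 2 and 95.1 to 435.2 CPM in those of the other 5 mice, and their part in the order was not tested. By EC cluster the Zbtb16 means ran from 24.1 CPM in cluster 15 and 28.5 in cluster 16 to 150.3 in cluster 2, where mice ranged from 5.34 to 352.3, with clusters 18, 24, 8 and 27 at 116.5, 104.7, 99.6 and 83.4. In monocytes the levels were lower, 34.4, 2.71 and 22.0 CPM against 16.2, 4.51 and 5.40 (-1.17, SE 0.83, adjusted p = 0.59). In DCs the difference was -2.72 (SE 0.87, adjusted p = 0.13) on 47 UMIs, at 19.5, 2.78 and 11.2 CPM against 5.04, 0.74 and 0.49, and it was called without control 2 (-3.45, adjusted p = 0.037).

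Sgk1 (chr10:21882184-21999903) and Errfi1 (chr4:150853919-150868892), both on the plus strand, were called in none of the 8 cell types. Sgk1 in ECs stood at 680.5, 413.7 and 597.6 CPM in the controls and 470.5, 374.1 and 468.0 in the stressed mice, with overlap (-0.39, SE 0.20, adjusted p = 0.41), and its differences in the 7 other tested cell types lay between -0.13 and 0.15. Errfi1 in tumor cells stood at 124.9, 97.5 and 107.4 CPM against 151.9, 167.1 and 124.3, where stress 3 lay just below control 1 (0.28, SE 0.14, adjusted p = 0.19). Split by cluster, the Errfi1 difference was positive in 9 of 10 tumor clusters and was called in cluster 1 (0.38, adjusted p = 0.046) and cluster 4 (0.49, adjusted p = 0.049), where 14.6% and 14.0% of all genes were called. In monocytes Errfi1 ranged from 144.8 CPM in control 2 to 441.4 in control 3, and the difference was -0.03 (SE 0.45).

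The receptor transcript Nr3c1 was nearly level in tumor cells, at 79.6, 67.6 and 80.2 CPM in the controls and 81.0, 83.1 and 78.1 in the stressed mice (-0.05, SE 0.10, adjusted p = 0.75). By cluster it was called in 1 of 10 tumor clusters, cluster 4, where it rose (0.29, SE 0.08, adjusted p = 0.048) and 14.0% of all genes were called. In DCs it stood at 53.1, 55.6 and 60.6 CPM against 94.1, 61.8 and 82.5, without overlap (0.58, SE 0.20, adjusted p = 0.14). The 6 DC markers summed to 1885 to 2476 CPM in DCs of control mice and 3469 to 3754 in those of stress mice, and the tumor marker share there was 60.4% to 73.2% in controls and 40.9% to 53.1% in stress mice. Neither range overlapped between the groups, and their part in the DC differences was not tested. In ECs the values were 118.4, 153.7 and 122.3 against 153.4, 196.3 and 177.2 CPM (0.39, SE 0.14, adjusted p = 0.25), where control 2 just exceeded stress 1. NK/T cells, with the highest level, gave 290.1, 243.9 and 294.2 against 273.8, 276.2 and 307.5 CPM (0.13, SE 0.15, adjusted p = 0.77).

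Hsd11b1 (chr1:193221634-193264075, minus strand) was read mainly in inflammatory myeloid cells, at 41.2, 94.3 and 65.4 CPM in the controls and 83.6, 200.2 and 181.7 in the stressed mice. Stress 2 and stress 3 lay above every control, stress 1 below control 2. The log2 difference was 1.36 (SE 0.53) with an adjusted p of 0.99. Neutrophils, where the gene was highest, had 4 to 57 cells per mouse and no test. Over the 7 cell types that tested it, 2 differences were negative and 5 positive. In cells annotated B cells it stood at 0, 7.42 and 17.6 CPM against 25.8, 20.9 and 20.9, without overlap, on 65 UMIs in all (1.26, SE 0.57, adjusted p = 0.45 in edgeR).

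Counted by cell type with edgeR, the calls stood in tumor cells alone. In ECs 0 of 10 passed (1 at an unadjusted p under 0.05, and 0 by DESeq2), against 0.213% of all genes. In monocytes 0 of 9 passed (0 unadjusted, 0 by DESeq2), against 0.122%, and in inflammatory myeloid cells 0 of 9 (3 unadjusted, 0 by DESeq2), where 0% of all genes passed. NK/T cells had 0 of 9 (2 unadjusted, 1 by DESeq2) against 0.857%, DCs 0 of 8 (3 and 0) against 2.64%, B cells 0 of 8 (2 and 1) against 0.483%, and cells annotated M-MDSCs 0 of 8 (2 and 0) against 0.561%. These shares are for the adjusted p. At an unadjusted p under 0.05, all genes gave 2205 of 14090 in ECs, 1470 of 12251 in monocytes and 365 of 9219 in inflammatory myeloid cells. They gave 1469 of 11196 in NK/T cells, 1789 of 10533 in DCs, 646 of 5796 in B cells and 903 of 9443 in cells annotated M-MDSCs. The calls of members named above under other settings stand beside shares of all genes of 0.887% in NK/T cells, 3.66% in DCs and 0.926% in cells annotated M-MDSCs without control 2, and 2.21%, 3.79% and 1.65% without the filter. DESeq2 called 2.92% in NK/T cells and 0.794% in B cells, and the block 2.05% in NK/T cells. The median log2 difference of the members tested was -0.62 in monocytes, -0.46 in inflammatory myeloid cells, -0.27 in DCs and 0.16 in B cells, and between -0.10 and -0.04 in the other 4 cell types, beside -0.02 to 0.00 for all genes.

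Whether the effect of stress differed between cell types was tested for tumor cells against each of the other 7, with the mouse as a block. Of the 10 genes, 0 passed in edgeR in any of the 7. The share of all genes that passed was 0.130% for ECs, 0.0634% for monocytes, 0.0821% for inflammatory myeloid cells, 0.742% for NK/T cells, 1.37% for DCs, 0.540% for B cells and 0.229% for cells annotated M-MDSCs. At an unadjusted p under 0.05 the counts were 3, 1, 1, 1, 4, 0 and 3 in that order. All genes were not counted at that threshold, so these counts have no share to stand beside. Among the 3 in cells annotated M-MDSCs was Zbtb16, which had 6 UMIs there in all. The lowest adjusted p was 0.053, for Ddit4 in NK/T cells, whose effect stood 0.88 (SE 0.21) above that in tumor cells, and the next was 0.061, for Errfi1 in ECs (-0.66, SE 0.11). Ddit4 in NK/T cells was called without control 2 (0.99, adjusted p = 0.026) and without stress 2 (1.01, adjusted p = 0.0060). Without control 2, Tsc22d3 was less negative than in tumor cells in ECs (1.33, adjusted p = 0.0063), NK/T cells (0.91, 0.015) and DCs (0.69, 0.011), Errfi1 was called in ECs (-0.58, 0.037) and Nr3c1 in DCs (0.72, 0.025). In tumor cells control 2 was the lowest control mouse for Ddit4, Tsc22d3, Errfi1 and Nr3c1, so leaving it out raised the control mean there by construction. Calls of a difference gained without control 2 are descriptions and no separate support. Without stress 1 Zbtb16 (-3.86, 0.0079), and without stress 2 Nr3c1 (0.79, 0.0062), were called in DCs. Without control 2 the share of all genes called was 1.31% for ECs, 2.83% for NK/T cells and 3.32% for DCs. Without stress 2 it was 2.35% for NK/T cells and 1.85% for DCs, and without stress 1 it was 2.35% for DCs.

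The order of the mice was itself regular across cell types. For Fkbp5, Tsc22d3 and Klf9, control 2 was the lowest control and stress 1 the highest stress mouse in 8 of 8 tested cell types. In monocytes 9 of 9 members tested had both, where 17.5% of all genes did. In inflammatory myeloid cells it was 7 of 9 (24.2% of all genes), in ECs 7 of 10 (18.7%), in DCs 5 of 8 (12.4%), in B cells 4 of 8 (5.94%), in NK/T cells 3 of 9 (8.82%), in tumor cells 3 of 10 (12.5%) and in cells annotated M-MDSCs 3 of 8 (12.5%). The cell types of 1 mouse come from 1 library and share its free RNA, so they are not independent of each other. The order counted was taken from these same data, so the counts are descriptions. Cluster 13 held 242 of 420, 320 of 1385 and 315 of 612 monocytes in the controls, and 182 of 478, 195 of 1616 and 543 of 1749 in the stressed mice. Of the monocyte clusters it had the highest means of Nr3c1, Hsd11b1, Sgk1, Errfi1 and Ddit4 and the lowest of Fkbp5 and Zbtb16. The part of this mix in the order was not tested.

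**Figure D4:**
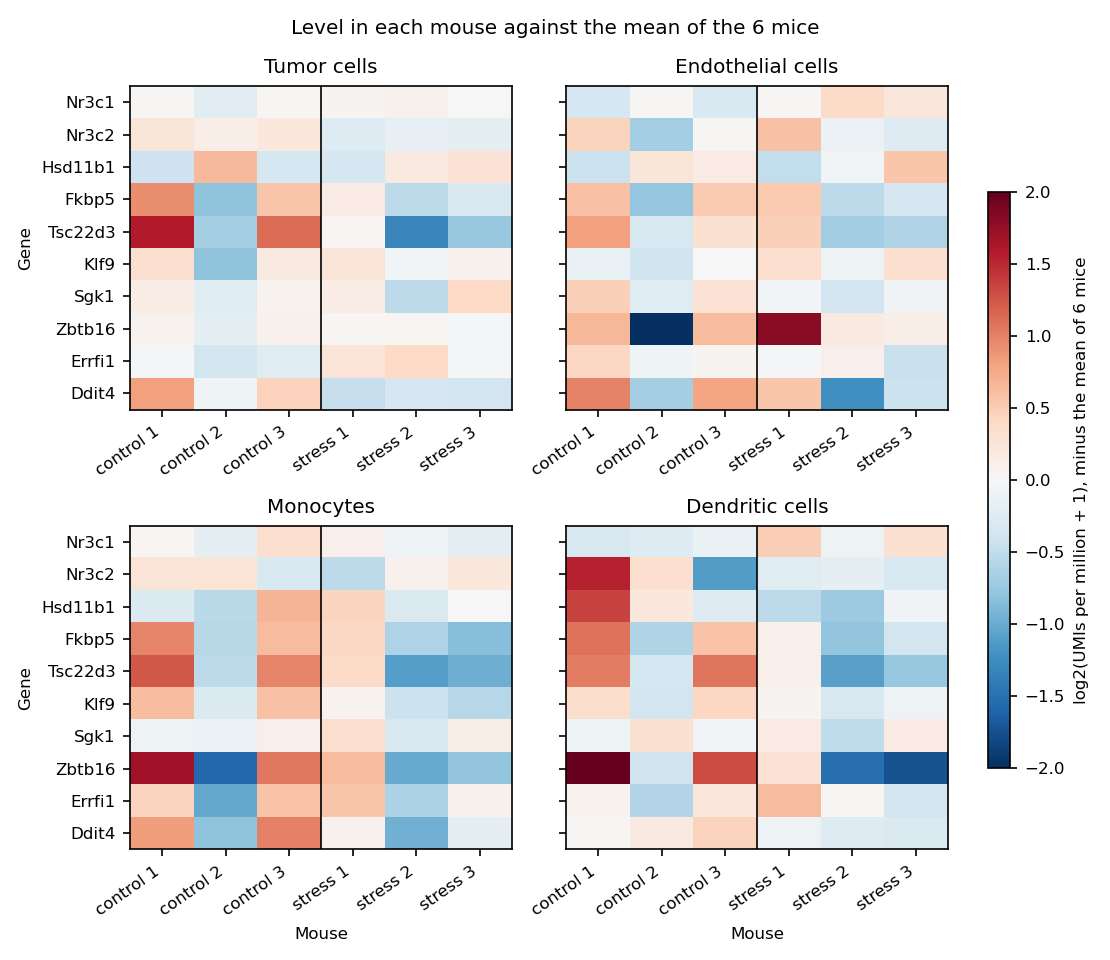
Deviation of each mouse's log2(CPM + 1) from the mean of the 6 mice, for the 10 genes (rows) and 6 mice (columns), in tumor cells, ECs, monocytes and DCs, with deviations beyond 2 in the end colors. In monocytes all 9 genes tested are lowest among controls in control 2 and highest among stress mice in stress 1, and in ECs 7 of 10 are.

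The wider pathway was read from lists that were drawn up with earlier results of these data known. Of 12 receptor chaperones and coregulators in tumor cells, 2 rose, the chaperones Hsp90aa1 (0.40, adjusted p = 0.046) and Hspa8 (0.39, adjusted p = 0.025), and 2 fell, among them the coactivator Ncoa1 (-0.30), beside 12.0% of all genes called higher and 9.46% called lower there. Hspa8 stood at 806.3, 853.1 and 773.5 CPM in the controls and at 1197, 1194 and 1124 in the stressed mice. Hsp90aa1 also rose in NK/T cells (0.91, adjusted p = 0.041) and Hspa8 in DCs (0.77, adjusted p = 0.015).

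Of 26 other induced genes, 23 were tested in tumor cells, where 2 rose and 2 fell, beside the 21.4% of all genes called in either direction. Foxo3 (-0.37) and Bcl6 (-0.51), transcription factors, fell. The genes that rose were both at low levels. Crispld2 (1.11) stood at 0.24, 0.18 and 0.29 CPM in the controls against 0.72, 0.45 and 0.51 in the stressed mice. G6pc, the last phosphatase of glucose output, stood at 0.15, 0.18 and 0.16 CPM in the stressed mice, with at most 1 UMI per control mouse and so without a fold. Foxo3 also fell in NK/T cells (-0.85), at 51.1, 64.1 and 70.6 CPM against 29.7, 36.9 and 32.0. The list's median log2 difference was negative in each of the 8 cell types, from -0.33 in ECs to -0.08 in tumor cells. Per2, a clock gene named here after its values were seen, was not called in tumor cells, at 16.005, 6.09 and 13.7 CPM against 9.40, 3.34 and 5.23 (-1.12, adjusted p = 0.13).

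Of 10 genes known to be repressed by glucocorticoids, Ccl2, a monocyte chemokine, rose in tumor cells (1.32, adjusted p = 0.0496) and Il1b and Ptgs2, the genes of interleukin 1β and cyclooxygenase 2, rose in DCs. These counts are 1 of 10 where 12.0% of all genes were called higher, and 2 of 10 where 2.64% were called in either direction. Il1b in DCs stood at 355.8, 1002 and 686.6 CPM in the controls and 1961, 1616 and 1964 in the stressed mice (1.54, SE 0.27, adjusted p = 0.012). Ptgs2 stood at 109.7, 86.8 and 114.4 against 321.8, 133.4 and 318.1 CPM (1.44, adjusted p = 0.028). The list's median was above 0 in each of the 8 cell types, from 0.04 in inflammatory myeloid cells to 1.65 in NK/T cells, and in B cells it rests on 2 genes. Markers of inflammatory myeloid cells, which include Il1b, summed to 1020 to 1613 CPM in DCs of control mice and 1940 to 3124 in those of stress mice. In NK/T cells they summed to 16.3 to 223.5 CPM in control mice and 120.5 to 1092 in stress mice, highest in stress 3, which also had the highest NK/T values of Il1b (269.7 CPM) and Cxcl2 (636.2 CPM). The DC marker sum and the tumor marker share in DCs, given above for Nr3c1, also separated the groups there. The part of these markers in the results was not tested.

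Genes that respond within minutes to stimulation or to tissue dissociation also differed between the groups. Of 9 such genes 3 fell and 1 rose in tumor cells, where 9.46% and 12.0% of all genes did. Fos, Egr1 and Ier2 fell in tumor cells (-1.16, -0.83 and -0.997), NK/T cells (-1.65, -1.42 and -1.05), DCs (-1.33, -1.34 and -0.89) and cells annotated M-MDSCs (-1.31, -1.34 and -1.30). The heat shock gene Hspa1b rose in tumor cells (0.87), NK/T cells (1.58), B cells (2.73) and cells annotated M-MDSCs (1.59), and Hspa1a in NK/T cells (1.89) and B cells (2.08). Of the 9 genes, 3 fell and 2 rose in NK/T cells, where 0.857% of all genes were called. In DCs 3 fell and 0 rose (2.64%), in B cells 0 fell and 2 rose (0.483%), and in cells annotated M-MDSCs 3 fell and 1 rose (0.561%). In ECs, monocytes and inflammatory myeloid cells 0 were called. The median mitochondrial share of UMIs in tumor cells was 3.6% to 4.6% in control mice and 5.3% to 5.6% in stress mice. The part of these differences in those of the glucocorticoid genes was not tested.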

How the data were processed

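Single-cell suspensions of 6 liver tumors were profiled on the 10x Genomics platform, 1 library per mouse. The authors deposited filtered matrices of UMI counts per gene and cell, made with Cell Ranger against mm10, and a table of 58794 annotated cells in 10 cell types and 28 clusters. The study's methods name Scrublet for doublet removal, exclusion of cells with over 20% mitochondrial reads or under 200 genes, and Harmony integration before clustering. No further cell filter was set here. A cell type had to hold 10 cells in every mouse to be tested, which left 8.

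The counts of all cells of a type were added up in each mouse. Genes were filtered by filterByExpr, scaled by TMM and tested with the quasi-likelihood test of edgeR 4.0.16 in R 4.3.3, each cell type alone, with Benjamini-Hochberg adjustment over all genes tested at 0.05. The study's methods name a test over cells, but mice are the replicates. The SE of a log2 difference is its size over the square root of F. The effect in each cell type was set against that in tumor cells in 1 fit with the mouse as a block. Alternatives were DESeq2 1.42.0, RLE scaling, no filter, the replicate number as a block, cells thinned to 1000 UMIs (2315 shallower cells left out), clusters left out and each mouse left out. Tables and figures were made in Python 3.11.15 with pandas 2.3.3 and matplotlib 3.10.9. Gene positions come from the GENCODE annotation of GRCm38 and promoter windows from RefSeq.

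On simulated counts for the stress comparison in tumor cells, run over 18813 genes, 194 of 200 changed genes were recovered with 11 false calls. UMI totals of 210714 to 170700706 per mouse and cell type set the precision, and counting intervals cover counting error only. All 10 genes were described in each cell type, and from each further list at most 4 called genes per cell type whose groups did not overlap, those with the largest change. The genes and lists were chosen with earlier results of these data known. Replicate numbers came from the labels. Deviations of every same-numbered pair correlated above 0.1 in 3 of 8 cell types (ECs, monocytes and NK/T cells) and not in tumor cells, so mice were not treated as paired. The values of 2 genes that the counts include are not reported here.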

Additional observations from a re-analysis of the deposited data

Results flagged for a closer look

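Pathway list genes called outside tumor cells had their effect there set against that in tumor cells (edgeR, with the mouse as a block). For 3 of these genes the effect of stress in a cell type differed from that in tumor cells by the test of the difference itself. The chaperone gene Hsp90aa1 rose in both, and its log2 difference was 0.57 larger in NK/T cells (0.575, SE 0.13, adjusted p = 0.046), at 0.91 against 0.40. The heat shock gene Hspa1b rose in both, by 1.67 more in cells annotated B cells (SE 0.34, adjusted p = 0.00050), at 2.73 against 0.87. The immediate-early gene Egr1 fell in both, with a further -0.58 in cells annotated M-MDSCs (SE 0.12, adjusted p = 0.0017), at -1.34 against -0.83. The difference between effects comes from 1 fit over both cell types and the effect in each from a fit of that cell type alone, so the first is not the gap between the second pair. List genes not called in the cell type itself are not covered, so the 3 are not a count over the full lists. Of all genes, 0.742% passed the test of the difference for NK/T cells, 0.540% for B cells and 0.229% for cells annotated M-MDSCs. The cause of the differences in the 3 genes was not tested.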

How the results depend on the processing

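Tsc22d3 stayed lower in stress in all 92 alternatives (log2 differences -2.18 to -0.23), Fkbp5 in all 91 (-1.39 to -0.04) and Ddit4 in all but 3 of 90. Over 801 alternative values of the 10 genes, 696 kept their direction and side of the threshold, 27 gained a call, 7 lost one and 71 changed sign, 1 of which also gained a call (Hsd11b1 in tumor cells without control 2). Of 432 values of other listed genes 115 lost their call and 0 changed sign. RLE scaling changed no count of calls by over 1.5 times. Unless named, the cause of a change was not tested; fewer UMIs by construction go with thinning, and fewer mice with leaving 1 out.

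The number of genes called rose with DESeq2 to 425 in ECs, 180 in monocytes, 6 in inflammatory myeloid cells, 162 in NK/T cells and 46 in B cells. Without the filter it was 107, 214, 80, 479 and 306 in the same order, 815 in DCs and 321 in cells annotated M-MDSCs. With the replicate number as a block it was 131, 205, 9, 229 and 54, then 661 and 124. After thinning it was 407 in tumor cells, 5 in inflammatory myeloid cells, 231 in NK/T cells, 27 in DCs, 16 in B cells and 6 in cells annotated M-MDSCs. Leaving out 1 mouse gave 1191 to 5790 in tumor cells, 3 to 46 in ECs, 3 to 64 in monocytes, 38 to 125 in NK/T cells, 65 to 354 in DCs, 6 to 40 in B cells and 25 to 90 in cells annotated M-MDSCs, each highest without control 2 except in NK/T cells (without stress 2) and B cells (without control 1).

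Members called in tumor cells were 0 after thinning, 3 with the block, where Tsc22d3 was added (-1.52, adjusted p = 0.0039 in edgeR), and 0 to 5 without 1 mouse, and the block called 27.0% of all genes there. In NK/T cells they were 1 with DESeq2, 2 without the filter, 1 with the block, 1 after thinning and 0 to 2 without 1 mouse, where the settings that called a member called 0.887% to 4.27% of all genes. In DCs they were 3 without the filter, 2 with the block and 0 to 3 without 1 mouse, in cells annotated M-MDSCs 2, 2 and 0 to 1 (Tsc22d3 with the block -1.08, adjusted p = 0.0048 in DCs and -1.38, adjusted p = 0.0011 in cells annotated M-MDSCs, where Ddit4 was also called, -1.42, adjusted p = 0.025), and in B cells 1 with DESeq2, the block, thinning or no filter. Such settings called 3.66% to 6.28% of all genes in DCs, 0.926% to 1.65% in cells annotated M-MDSCs and 0.794% to 1.73% in B cells. Against tumor cells they were 0 to 2 without 1 mouse in ECs, NK/T cells and DCs. Same-numbered mice did not deviate together in every cell type, so the block is a description: every mouse correlated best with its own number in 2 of 8 cell types.

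The median log2 difference of the members was -0.70 in DCs of cluster 20 alone, -0.79 in thinned B cells and 0.595 in thinned cells annotated M-MDSCs. Without 1 mouse it ran from -0.40 to -0.16 in tumor cells, -1.0002 to -0.038 in inflammatory myeloid cells and -0.34 to 0.052 in NK/T cells.

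None of the log2 differences that changed sign had passed the main test. With the block they were Hsd11b1 0.52, Zbtb16 0.095 and Klf9 0.054 in tumor cells, Errfi1 0.053 in monocytes and Sgk1 -0.045 in B cells. After thinning they were Sgk1 0.038, Nr3c1 0.066 and Klf9 0.0095 in tumor cells, Nr3c2 -0.030 in ECs, Sgk1 -0.027 and Nr3c1 0.067 in monocytes, Sgk1 0.28 in inflammatory myeloid cells, Errfi1 -0.25 and Sgk1 -0.13 in NK/T cells and Sgk1 0.595 in cells annotated M-MDSCs. Tumor cells without cluster 5 gave Hsd11b1 0.049 and Zbtb16 0.10, and without cluster 6 Klf9 0.018. Monocytes without cluster 13 gave Errfi1 0.36 and Nr3c1 0.13, and DCs of cluster 20 alone gave Errfi1 -0.23. Without the filter Ddit4 was 0.0003 in NK/T cells and Sgk1 0.016 in DCs, and DESeq2 gave Sgk1 -0.016 in B cells.

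Without 1 mouse, signs also changed in tumor cells for Hsd11b1 (-0.57 to 2.08), Klf9 (-0.32 to 0.19), Sgk1 (-0.26 to 0.16) and Zbtb16 (-0.49 to 0.22), in ECs for Hsd11b1 (-0.57 to 0.41) and Nr3c2 (-0.23 to 0.39), and in monocytes for Errfi1 (-0.40 to 0.28), Hsd11b1 (-0.30 to 0.69) and Nr3c1 (-0.21 to 0.10). In inflammatory myeloid cells they changed for Errfi1 (-0.33 to 0.13), Nr3c1 (-0.48 to 0.068), Sgk1 (-0.25 to 0.19) and Zbtb16 (-1.0002 to 0.61). In NK/T cells they changed for Ddit4 (-0.34 to 0.17), Errfi1 (-0.040 to 0.22), Hsd11b1 (-0.40 to 0.16), Klf9 (-0.69 to 0.19) and Sgk1 (-0.055 to 0.27). DCs gave Klf9 (-0.44 to 0.045) and Sgk1 (-0.13 to 0.20), B cells Sgk1 (-0.40 to 0.19), and cells annotated M-MDSCs Klf9 (-0.084 to 0.53), Nr3c1 (-0.15 to 0.033) and Sgk1 (-0.33 to 0.093).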
